A study of Mus musculus with 20 samples.

Results

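The 39 Hox genes of the mouse, which encode the transcription factors that record position along the body, were followed in fibroadipogenic progenitors of hindlimb muscle. The genes were taken by name, as every symbol made of Hox, a cluster letter from a to d and a number, and all 39 were found among the 24394 symbols shared by the 3 count tables. They divide into 11 genes of the Hoxa cluster, 10 of Hoxb, 9 of Hoxc and 9 of Hoxd. Fibroadipogenic progenitors are the resident mesenchymal cells between the fibres, from which fibroblasts and fat cells of muscle can arise.

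The tumour-bearing mice, called KPC here, received 2 M (M for megacells) cells of the KPCY line, a mouse pancreatic tumour line, in 50 µL into the pancreas, and the control mice had sham surgery. All mice were male C57BL/6J, with no age given in the labels. The progenitors were sorted as live, nucleated cells without CD31, CD45 or α7-integrin and with SCA-1, and were collected fresh at day 14 (4 KPC and 3 control libraries), day 21 (3 KPC and 3 control) and day 26 (3 KPC and 4 control). The tumour was an implanted cell line, so it models growth from injected cells and not a tumour that arises in the animal. The labels call the replicates biological and say no more about how many mice stand behind each library. A p-value therefore sets a difference between groups against the spread between these libraries.

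Hox proteins bind DNA through a conserved stretch called the homeodomain, and a gene's place in its cluster follows the order in which it is used from head to tail. Low paralogue numbers mark anterior positions, and high numbers mark posterior and distal ones. In the limb the posterior genes of the Hoxa and Hoxd clusters pattern the axis from shoulder or hip to digit, while posterior Hoxc genes are a mark of the hindlimb. Connective tissue cells of adult muscle are known to keep much of this positional code.

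The part of a transcript that codes for the homeodomain, the homeobox, is 180 bases long and is shown for Hoxc10 and Hoxa5, which passed a test below, and for Hoxa10, the partner of Hoxc10 in the Hoxa cluster. The sequences are sense strand, 5′ to 3′, from the GENCODE vM21 transcripts of the mm10 build. The capitals mark the 18 bases that code for the conserved run of residues in the recognition helix by which a homeobox was found in 39 of 39 genes.
Hoxc10: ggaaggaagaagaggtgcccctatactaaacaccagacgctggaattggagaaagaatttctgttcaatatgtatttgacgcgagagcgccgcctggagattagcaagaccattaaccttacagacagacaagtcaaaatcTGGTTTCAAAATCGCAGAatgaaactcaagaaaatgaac
Hoxa10: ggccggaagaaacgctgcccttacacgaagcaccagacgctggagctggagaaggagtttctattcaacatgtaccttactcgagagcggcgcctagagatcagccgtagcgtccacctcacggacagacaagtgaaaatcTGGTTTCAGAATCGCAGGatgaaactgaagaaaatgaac
Hoxa5: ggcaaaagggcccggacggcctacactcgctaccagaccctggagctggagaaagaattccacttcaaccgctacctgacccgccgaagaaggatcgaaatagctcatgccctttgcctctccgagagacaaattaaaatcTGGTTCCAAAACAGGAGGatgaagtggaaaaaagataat
Hoxa10 and Hoxc10 were identical at 80.6% of these bases. Hoxa5, which sits in another paralogue group, was identical to Hoxa10 at 61.7% and to Hoxc10 at 60.6%. Over all pairs of genes the median identity was 80.6% within a paralogue group (42 pairs) and 60.6% between groups (699 pairs). In spite of this likeness, a run of 59 bases, the length of a read, was shared between Hox genes in only 2 places, where the annotated transcripts overlap. Hoxc5 and Hoxc10 shared 110 such runs and Hoxd3 and Hoxd4 shared 330.

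The libraries held 12.9 to 26.4 M counts each (M for megacounts). Levels are given as CPM, that is counts scaled to a library of 1 M counts, after TMM scaling over all 20 libraries. Levels of different genes are compared per kilobase of exon, with the length taken over all annotated exons of a gene. Progenitor markers such as Pdgfra and Ly6a, the gene of SCA-1, were counted in every library, as were all 8 markers of that list. Markers of other cells were present beside them. At day 14 the endothelial, leukocyte, mural and glial sums were higher in every KPC library than in any control. At days 21 and 26 those sums overlapped between the groups. A sum weighs the highest markers most. At day 21, 10 of 12 endothelial markers were above every control in all KPC libraries and 1 was below. At day 26, 2 were above and 0 below. The 12 endothelial markers summed to 595 to 815 CPM in KPC and 421 to 520 CPM in controls at day 14, to 543 to 1115 CPM in KPC and 572 to 608 CPM in controls at day 21, and to 358 to 1270 CPM in KPC and 394 to 577 CPM in controls at day 26. The 12 macrophage and leukocyte markers summed to 32.7 to 82.2 CPM in KPC and 18.7 to 31.7 CPM in controls at day 14. They summed to 28.8 to 155 CPM in KPC and 19.2 to 43.5 CPM in controls at day 21, and to 486, 46.8 and 30.0 CPM in the 3 KPC libraries and 21.5 to 35.2 CPM in controls at day 26. The progenitor markers summed to 17726, 25721 and 29322 CPM in KPC replicates 1 to 3 at day 26, against 29563 to 34753 CPM in controls. The 7 epithelial and tumour cell markers summed to 3.42 to 26.2 CPM in KPC and 4.87 to 12.0 CPM in controls over all days. Krt8 and Krt18 had no count in any library of day 21. At days 14 and 26, Epcam, Krt8 and Krt18 had no count in any control library, while each was counted in at least 1 KPC library of each day. The source of these counts was not tested. By the chi-square of counts per gene, which grows as 2 libraries differ, KPC replicates 1 and 2 of day 26 stood at 83.7. Replicate 3 stood at 362 from replicate 1 and 320 from replicate 2, and control pairs at 11.6 to 41.4. The Hox calls of day 26 and those of the gene lists are therefore also given without KPC replicate 3. Its library code starts with 226 and those of KPC replicates 1 and 2 with 227, so code and distance cannot be told apart. In the marker sums above, replicate 1 was furthest from the controls. The leading number of the library codes differs between all KPC and all control libraries at days 14 and 21, and what it stands for and the treatment cannot be told apart there. In bulk RNA, fewer cells of a type and less RNA per cell cannot be told apart either.

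The progenitors carried a code made mainly of Hoxc and Hoxa genes, with its peak at paralogue group 10. With a mean of at least 1 CPM taken as expressed, 20 of the 39 genes were expressed in all 6 groups. These were Hoxa2, Hoxa3, Hoxa5, Hoxa7, Hoxa9, Hoxa10 and Hoxa11, then Hoxb2, Hoxb3 and Hoxb4, then Hoxc4, Hoxc5, Hoxc6, Hoxc8, Hoxc9, Hoxc10 and Hoxc11, and last Hoxd4, Hoxd8 and Hoxd9. A further 13 genes were expressed in none, among them every gene of paralogue groups 12 and 13, which act in the most distal limb and the tail end of the trunk. Hoxd10 and Hoxd11 were also among the 13, at 0.297 and 0.146 CPM per kilobase over all libraries. Hoxb1, Hoxb13, Hoxd1 and Hoxd12 had 0 counts in all 20 libraries, where 3 counts would be 0.118 to 0.224 CPM depending on the library, and Hoxc12 had 11 counts in 4 libraries. Hoxa4, Hoxa6, Hoxb6, Hoxb7 and Hoxd3 lay around the threshold and were expressed in some groups.

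**Figure D1:**
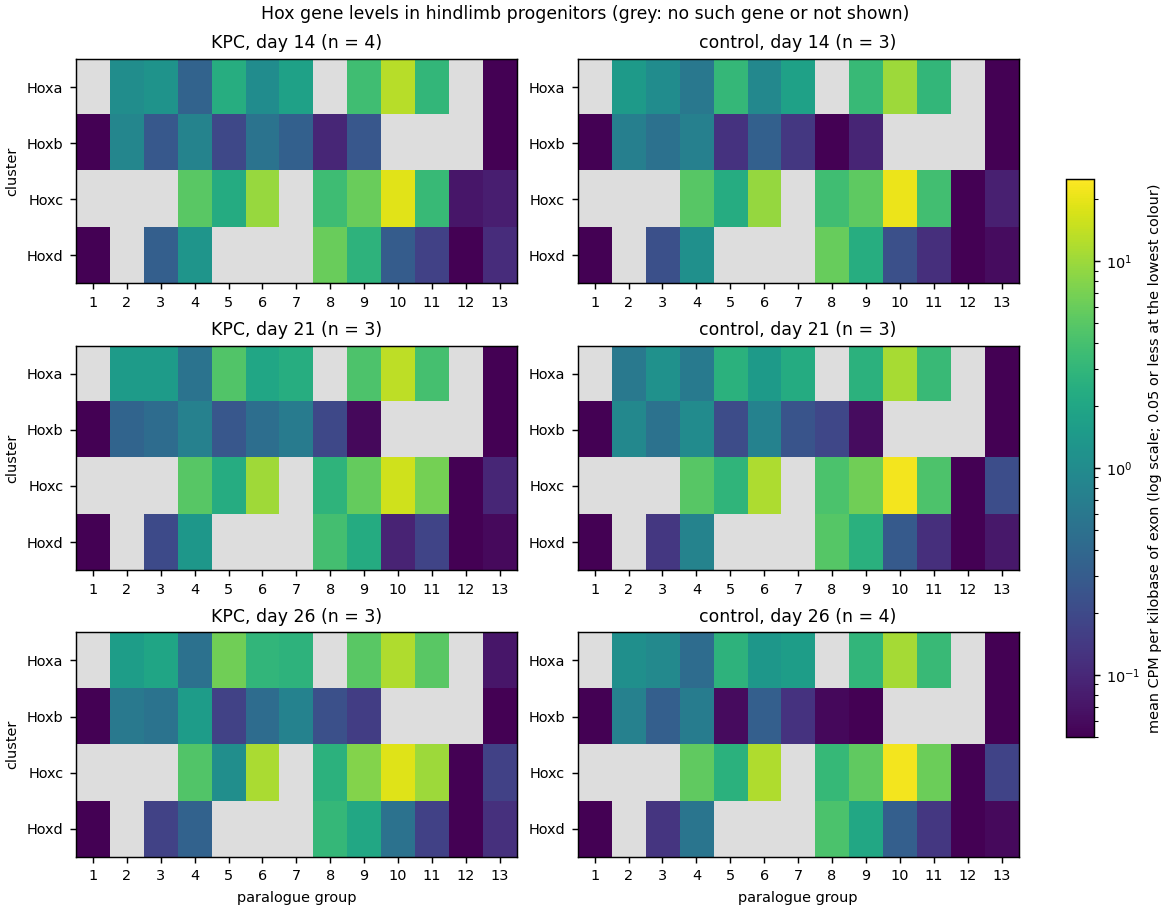
Mean level of 38 of the 39 Hox genes in CPM per kilobase of exon, on a logarithmic colour scale, with clusters down the side, paralogue groups along the bottom and 1 panel for each group of libraries. The same bright cells recur in Hoxa, Hoxc and Hoxd in all 6 panels, with Hoxc10 the brightest in each. In Hoxd the brightest are Hoxd8 and Hoxd9, while Hoxd10 and Hoxd11 stay dim, as does Hoxb.

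Per kilobase, Hoxc10 stood first in each of the 6 groups, at 19.1, 16.0 and 18.6 CPM per kilobase in KPC at days 14, 21 and 26 and at 20.8, 22.2 and 22.7 in controls at the same days. Hoxa10 and Hoxc6 held the next 2 places in every group, and they changed places between groups. Hoxa10 averaged 11.7 CPM per kilobase over all libraries and Hoxc6 10.7. The 10 highest genes of each group had 7 members in common, Hoxc10, Hoxa10, Hoxc6, Hoxd8, Hoxc9, Hoxc4 and Hoxc11. The highest gene of the Hoxd cluster was Hoxd8, at 4.72 CPM per kilobase over all libraries, and that of the Hoxb cluster was Hoxb4, at 0.911. Paralogue groups 9 to 13 made up 53.7% to 64.7% of the summed level per kilobase in the KPC libraries of day 26 and 57.0% to 60.2% in the controls of that day, so their share overlapped between the groups.

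The expressed set was nearly the same in tumour-bearing and control mice. At day 14, 22 genes were expressed in KPC and 21 in controls, with 20 in both. At day 21 there were 23 in KPC and 23 in controls, with 21 in both, and at day 26 there were 22 in KPC and 21 in controls, with 21 in both. The genes that crossed the threshold were all low. Hoxb6 and Hoxd3 were expressed in KPC alone at day 14, at 1.04 ± 0.540 and 1.37 ± 0.468 CPM in KPC (SD, n = 4) and 0.664 ± 0.370 and 0.960 ± 0.236 CPM in controls (SD, n = 3).

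At day 21 Hoxa4 and Hoxb6 were expressed in controls alone, at 0.853 ± 0.329 and 0.924 ± 0.654 CPM in KPC and 1.03 ± 0.110 and 1.55 ± 0.897 CPM in controls (SD, n = 3 each). Hoxb7 was expressed in KPC alone at days 21 and 26, and in each case a single library carried it. Its levels were 0, 3.00 and 0.0974 CPM in KPC and 0.512, 0.378 and 0.281 CPM in controls at day 21, and 2.96, 0.118 and 0.556 CPM in KPC and 0.425, 0.149, 0 and 0.193 CPM in controls at day 26. None of these 4 genes passed the test between KPC and control at a day where it was tested, and Hoxb7 was too low to be tested at days 21 and 26.

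At day 14 no Hox gene was shown to differ between KPC and control. Of 39 genes, 29 passed the filter on low counts, and 0 were called at an adjusted p under 0.05 by the edgeR quasi-likelihood test with Benjamini-Hochberg adjustment over all 13344 genes tested, of which 1.12% were called. DESeq2 and limma-voom also called 0, where they called 3.81% and 4.95% of all genes. At an unadjusted p under 0.05 there was 1, Hoxa10, where the share over all genes was 14.3%. The median log2 fold change of the 29 was 0.13, against 0.0072 over all genes, and the median size of the change regardless of sign was 0.23, against 0.16 over all genes.

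Hoxa10, at chr6:52231197-52240854 on the minus strand, specifies the upper leg segment in the mouse together with its paralogues. It was at 42.4, 39.1, 37.2 and 48.3 CPM in KPC and 23.7, 40.5 and 34.2 CPM in controls at day 14, and the groups overlapped (log2 fold change 0.37, SE 0.16, adjusted p 0.332). Hoxb3, also among the 3 genes with the smallest p, was at 1.35, 1.24, 0.673 and 1.47 CPM in KPC and 2.13, 2.74 and 1.56 CPM in controls (log2 -0.82, SE 0.45, adjusted p 0.439). Hoxb3 was the single Hox gene without overlap between the groups, where 13.3% of all genes tested had none.

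The other posterior genes of day 14 overlapped between the groups. Hoxa9 was at 25.2, 18.1, 19.5 and 20.4 CPM in KPC and 15.1, 28.2 and 12.0 CPM in controls, and Hoxc10 at 38.0, 39.1, 33.2 and 35.5 CPM in KPC and 38.3, 36.7 and 44.1 CPM in controls. Hoxc11 averaged 6.70 ± 3.07 CPM in KPC (SD, n = 4) and 7.72 ± 0.875 CPM in controls (SD, n = 3), and Hoxc9 14.8 ± 2.33 CPM in KPC and 13.03 ± 0.581 CPM in controls. Hoxa11, Hoxd8 and Hoxd9 averaged 7.01 ± 1.78, 16.5 ± 1.64 and 5.94 ± 1.30 CPM in KPC and 7.01 ± 0.842, 16.3 ± 3.66 and 5.09 ± 2.00 CPM in controls. The adjusted p of these genes lay between 0.651 and 0.981, and for Hoxc10 the log2 change was -0.11 (SE 0.12), for Hoxa9 0.19 (SE 0.25).

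At day 21 Hoxa9 was higher and Hoxc10 was lower in KPC progenitors, and both are posterior genes expressed in every group. Hoxa9 was at 24.0, 30.2 and 20.3 CPM in KPC and 13.8, 17.9 and 13.6 CPM in controls. Hoxc10 was at 34.7, 27.9 and 29.0 CPM in KPC and 43.1, 43.2 and 41.0 CPM in controls. Neither gene overlapped between the groups.

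Hoxa9, at chr6:52223100-52231089 on the minus strand, is best known for its part in blood stem cells and in the proximal limb. Its log2 fold change was 0.71 (SE 0.19, adjusted p 0.03, edgeR quasi-likelihood test with Benjamini-Hochberg adjustment). Hoxc10, at chr15:102966796-102971893 on the plus strand, is a marker of hindlimb position in mouse connective tissue and fat. Its log2 fold change was -0.48 (SE 0.13, adjusted p 0.0327). These were 2 of 28 Hox genes tested, 1 in each direction, while 12.5% of all 13154 genes tested were called, 6.38% higher and 6.11% lower. Of the 28 genes, 4 were above every control in all KPC libraries and 2 below, where 33.2% of all genes did not overlap, 16% above and 17.2% below. The median change of the 28 was 0.038, against 0.0091 over all genes, and the median size of the change was 0.40, against 0.26 over all genes.

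Both calls were near the threshold and were lost when certain single libraries were left out. Hoxa9 had an adjusted p of 0.101 without KPC replicate 2, 0.129 without control replicate 1 and 0.122 without control replicate 3. Hoxc10 kept its call only without KPC replicate 1, with an adjusted p of 0.00623, and had 0.0984 without KPC replicate 2, 0.102 without KPC replicate 3, and 0.114, 0.11 and 0.0818 without control replicates 1, 2 and 3. With KPC replicate 1 left out, the test called 4 Hox genes, where it called 19.7% of all genes. Without KPC replicate 3 and without control replicate 2 it called Hoxa9 alone, where it called 8.82% and 5.68% of all genes. Without KPC replicate 2, control replicate 1 and control replicate 3 it called 0 Hox genes, where it called 8.21%, 5.3% and 6.3% of all genes. Over these refits the log2 change of Hoxa9 stayed between 0.55 and 0.84 and that of Hoxc10 between -0.59 and -0.41. A fit of all 20 libraries together gave Hoxa9 an adjusted p of 0.178 and called 1 Hox gene, Hoxc10, and 3.08% of all genes. Scaling by library size alone gave Hoxc10 0.0562 and called 1 Hox gene and 12.7% of all genes. DESeq2 called both genes, where it called 15.3% of all genes, and limma-voom called 4 Hox genes, where it called 17.3%. Both genes were also called with RLE scaling (12.4% of all genes), with no filter (10.5%) and with the replicate number as a block (11.7%). The endothelial marker sums were 1115, 708 and 543 CPM in KPC replicates 1 to 3, against 572 to 608 CPM in controls. Replicate 3 was below the controls in this sum. Of the 12 single markers, 10 were above every control in all KPC libraries, replicate 3 included, and 1 was below. The part of these markers in the Hox changes was not tested.

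**Figure D2:**
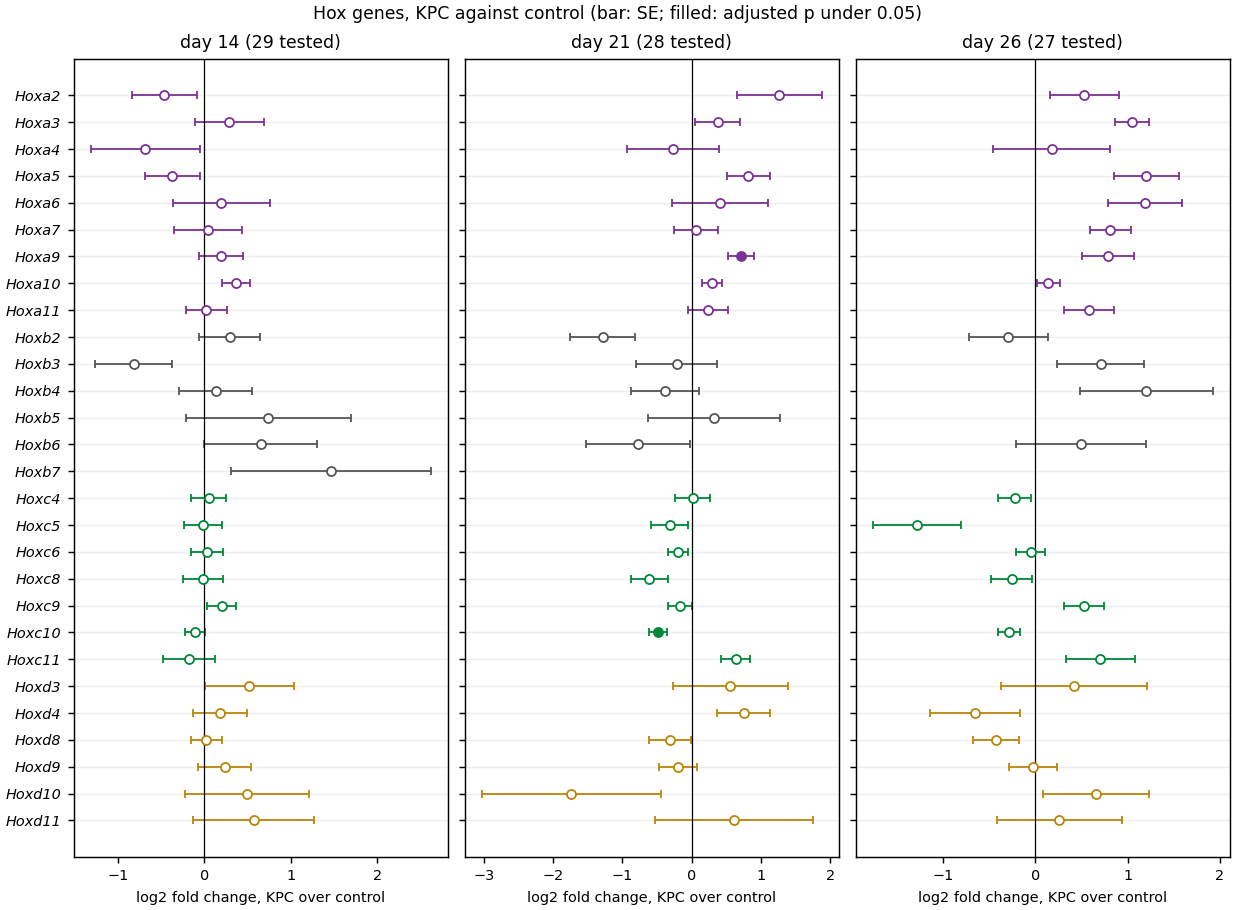
Log2 fold change of the tested Hox genes except 1, KPC over control, with its standard error as a bar, in 1 panel for each day and coloured by cluster, with a horizontal scale of its own in each panel. Filled points have an adjusted p under 0.05, which are Hoxa9 (0.71) and Hoxc10 (-0.48) at day 21, and at day 26 all Hoxa points shown lie to the right of 0.

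Among the other posterior genes of day 21, Hoxc11, a hindlimb gene of the mouse embryo, was at 16.8, 11.7 and 12.997 CPM in KPC and 8.43, 8.45 and 9.67 CPM in controls. The groups did not overlap, and the gene was not called (log2 0.64, SE 0.21, adjusted p 0.0696). Hoxa11, which patterns the lower leg and forearm, was at 10.1, 8.44 and 9.10 CPM in KPC and 7.45, 11.0 and 4.90 CPM in controls, and 35.0% of its exons overlap the antisense gene Hoxa11os. Hoxc9 was at 12.4, 15.4 and 14.6 CPM in KPC and 16.2, 16.5 and 14.6 CPM in controls, and Hoxd9 at 5.03, 5.31 and 4.19 CPM in KPC and 5.12, 6.33 and 5.14 CPM in controls. Hoxa11, Hoxc9 and Hoxd9 overlapped between the groups. The Hoxa cluster as a whole had 9 of 10 tested genes with a positive log2 change at day 21, with a median of 0.39. Hoxa5 was at 6.53, 11.2 and 8.57 CPM in KPC and 3.66, 4.25 and 6.90 CPM in controls (log2 0.82, SE 0.32, adjusted p 0.115), and Hoxa10 at 37.0, 52.1 and 43.2 CPM in KPC and 37.1, 37.4 and 33.1 CPM in controls. Both overlapped with the controls through KPC replicate 1. Hoxd8 and Hoxb4 averaged 10.6 ± 4.30 and 1.99 ± 0.950 CPM in KPC and 13.2 ± 3.88 and 2.60 ± 0.440 CPM in controls (SD, n = 3 each). Hoxb2, an anterior gene, was the other gene below the controls, at 1.19, 1.85 and 0.876 CPM in KPC and 3.03, 3.02 and 3.41 CPM in controls (log2 -1.29, SE 0.47, adjusted p 0.0982).

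At day 26 the tested Hoxa genes all had a positive log2 change in KPC, small in some, and none passed the test. Of 27 Hox genes tested, 0 were called by the edgeR quasi-likelihood test, as were 0% of all 13157 genes, while 8 had an unadjusted p under 0.05, 6 higher and 2 lower, where the share over all genes was 34.3%, 20.3% higher and 13.9% lower. DESeq2 called 5 Hox genes, where it called 19.6% of all genes, and limma-voom with quality weights called 7, where it called 34.8%. A fit of all 20 libraries called 6, where it called 34.6%, and the libraries with the leading code number 227, which hold KPC replicates 1 and 2 and control replicates 1 to 3, gave 7, where 47.1% were called. All 10 Hoxa genes tested had a positive log2 change, with a median of 0.68, and 5 of them did not overlap with the controls. Among those that overlapped, Hoxa4 (log2 0.18, SE 0.64) and Hoxa10 (log2 0.14, SE 0.12) changed little. Over all 27 the median was 0.42, against -0.0029 over all genes, 5 genes were above the controls and 3 below, and 29% of all genes did not overlap, 14.5% on each side.

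The 3 genes with the smallest p were Hoxa3, Hoxa7 and Hoxa5, none of them called. Hoxa3, an anterior gene needed for the thymus and parathyroid, was at 10.6, 12.3 and 12.0 CPM in KPC and 5.10, 5.70, 5.40 and 6.31 CPM in controls (log2 1.05, SE 0.19, adjusted p 0.0592). Hoxa7 was at 8.49, 8.36 and 7.28 CPM in KPC and 4.43, 4.41, 3.99 and 5.49 CPM in controls (log2 0.81, SE 0.22, adjusted p 0.0724). In both genes the 3 KPC libraries, replicate 3 included, lay close together and above every control. Antisense genes overlap 13.3% of the exons of Hoxa3 and 20.4% of those of Hoxa7, and since the strand used in counting is not given, their reads cannot be told apart.

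Hoxa5, at chr6:52201754-52204587 on the minus strand, acts in the shoulder girdle, lung and fat depots of the mouse, and no other gene in the tables overlaps its exons. It was at 19.1, 10.7 and 6.42 CPM in KPC and 5.52, 5.26, 4.78 and 5.49 CPM in controls (log2 1.20, SE 0.35, adjusted p 0.077). All KPC libraries were above the controls, and replicate 1, which also had the highest endothelial and leukocyte marker sums of the day, was the highest. Hoxa9 was at 27.1, 42.6 and 16.6 CPM in KPC and 18.4, 18.0, 13.6 and 16.6 CPM in controls. Its highest value was in replicate 2, whose endothelial sum of 358 CPM was below that of every control. The sum does not stand for each marker. Of the 12 endothelial markers, 11 had a positive log2 change at day 26 and 1 a negative one, with a median of 2.43. Above every control in all KPC libraries, replicate 2 included, were 2 of them, where 14.5% of all genes were. The part of those cells in the Hoxa levels was not tested.

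**Figure D3:**
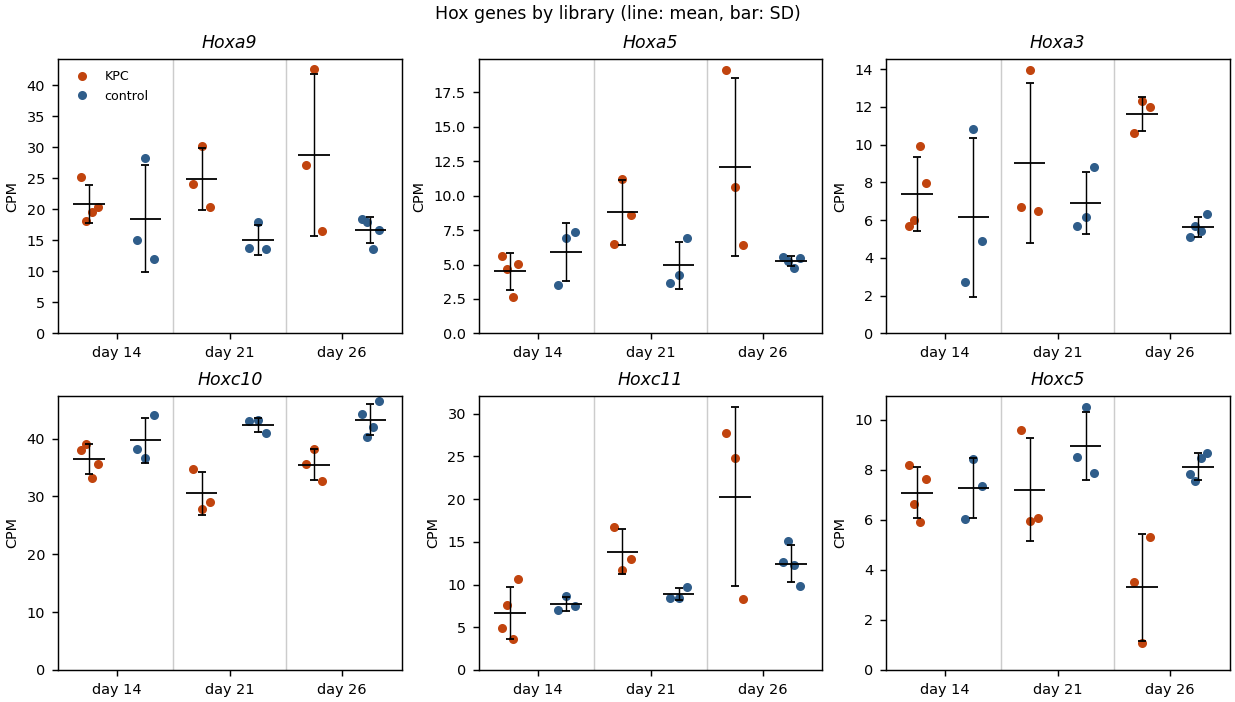
CPM of 6 Hox genes in each library, with the mean as a line and the SD as a bar, KPC left of control at each day. At day 26 Hoxa3 lies at 10.6 to 12.3 CPM in KPC and 5.10 to 6.31 CPM in controls, while Hoxa9, Hoxa5 and Hoxc11 spread widely between the 3 KPC libraries.

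In the Hoxc cluster of day 26, Hoxc10 was again below the controls, at 35.6, 38.2 and 32.7 CPM in KPC and 44.3, 40.3, 42.1 and 46.4 CPM in controls (log2 -0.28, SE 0.12, adjusted p 0.134). Hoxc5 was at 3.52, 1.06 and 5.31 CPM in KPC and 7.83, 7.54, 8.46 and 8.67 CPM in controls (log2 -1.28, SE 0.48, adjusted p 0.112). Neither gene overlapped between the groups, and neither was called. Hoxc11 was at 27.7, 24.9 and 8.34 CPM in KPC and 12.6, 15.1, 12.3 and 9.83 CPM in controls (log2 0.70, SE 0.37, adjusted p 0.208), and Hoxc9 at 21.6, 21.1 and 14.2 CPM in KPC and 13.9, 12.5, 10.4 and 15.9 CPM in controls (log2 0.53, SE 0.21, adjusted p 0.129). In both, KPC replicates 1 and 2 were above every control and replicate 3 was among or below them.

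The other genes of paralogue groups 9 to 13, with Hoxd8 and Hoxb4, were not called at day 26 either. Hoxa10 was at 33.4, 42.3 and 40.5 CPM in KPC and 34.6, 33.5, 37.1 and 35.6 CPM in controls, and Hoxa11 at 9.83, 15.7 and 9.60 CPM in KPC and 7.22, 9.23, 9.09 and 5.59 CPM in controls. Hoxa10 overlapped and Hoxa11 did not (log2 0.58, SE 0.27, adjusted p 0.161). Hoxd8 was at 9.78, 5.77 and 10.5 CPM in KPC and 12.7, 12.1, 11.2 and 10.8 CPM in controls (log2 -0.42, SE 0.25, adjusted p 0.244), with every KPC library below the controls. Hoxd9 averaged 4.40 ± 0.241 CPM in KPC (SD, n = 3) and 4.48 ± 0.644 CPM in controls (SD, n = 4), and Hoxb4 was at 7.82, 2.65 and 1.41 CPM in KPC and 2.55, 1.74, 0.431 and 2.26 CPM in controls (log2 1.20, SE 0.72, adjusted p 0.251). Hoxd9 and Hoxb4 overlapped.

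Without KPC replicate 3, the same test at day 26 called 8 of 27 Hox genes, where it called 51.6% of all 13517 genes tested. Hoxa3 (log2 1.00), Hoxa5 (1.49), Hoxa6 (1.29), Hoxa7 (0.86), Hoxa9 (1.04), Hoxc9 (0.68) and Hoxc11 (1.06) were higher and Hoxc5 (-1.83) was lower in KPC, with adjusted p from 0.00172 to 0.0351. In the Hoxa cluster 5 of 10 genes tested were called higher, where 25.7% of all genes were, and 25.9% of all genes were lower. Hoxc10 was not called (log2 -0.25, adjusted p 0.0882). Replicate 3 was the KPC library nearest the controls in Hoxa5, Hoxa9, Hoxc5, Hoxc9 and Hoxc11, so leaving it out selects on the outcome.

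Whether the difference between KPC and control itself changed from day to day was asked in a fit of all 20 libraries, in which 32 Hox genes were tested. From day 14 to day 21 no Hox gene was called, where 0.644% of all 14141 genes were, while 5 had an unadjusted p under 0.05 (15.1% of all genes). DESeq2 also called 0 Hox genes in this contrast, where it called 3.09% of all genes. From day 14 to day 26 1 was called, where 14.3% of all genes were, 9.6% with a higher effect and 4.72% with a lower one, and 3 had an unadjusted p under 0.05 (33.1% of all genes). That gene was Hoxa5, at 5.64, 4.70, 2.62 and 5.04 CPM in KPC and 3.51, 6.95 and 7.35 CPM in controls at day 14, against the day 26 values above. Its log2 change differed by 1.58 between the days (SE 0.49, adjusted p 0.0387, edgeR quasi-likelihood test).

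The Hoxa5 call was also near the threshold and was lost without most single libraries. Leaving out 1 library at a time gave the call 3 times, without KPC replicate 4 of day 14 (adjusted p 0.0451), control replicate 1 of day 14 (0.0401) and KPC replicate 3 of day 26 (0.00203). Without each of the other 11 libraries the adjusted p lay between 0.0507 and 0.135, with the highest without KPC replicate 1 of day 26. From day 21 to day 26 no Hox gene was called, as were 0% of all genes, while 2 had an unadjusted p under 0.05 (12.9% of all genes). DESeq2 called 0 Hox genes in this contrast, where it called 0.334% of all genes. The KPC effect on Hoxa9 differed by 0.072 between days 21 and 26 (SE 0.41, adjusted p 0.958) and that on Hoxc10 by 0.19 (SE 0.16, adjusted p 0.632).

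The balance of the clusters differed between KPC and control libraries at the later days. The Hoxa cluster held 27.8% to 32.5% of the summed Hox level per kilobase in KPC and 25.1% to 33.8% in controls at day 14. It held 32.4% to 40.0% in KPC and 26.5% to 27.8% in controls at day 21, and 34.0% to 39.4% in KPC and 26.4% to 28.9% in controls at day 26. The groups overlapped at day 14 and did not at days 21 and 26. The mean differences, KPC minus control, were 1.3599, 9.62 and 8.75 percentage points, and without KPC replicate 3 that of day 26 was 9.98. The day 14 difference turned with single libraries, as it was -0.51 points without control replicate 1 and 3.83 points without control replicate 2. It was 0.37 points without Hoxa9 and Hoxc10.

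The share of the Hoxc cluster was lower in KPC at days 21 and 26, and since shares add up to a fixed total a higher Hoxa level also lowers it. It held 51.6% to 56.1% in KPC and 53.9% to 59.1% in controls at day 14, 48.5% to 55.9% in KPC and 58.1% to 60.8% in controls at day 21, and 50.8% to 55.3% in KPC and 61.0% to 63.2% in controls at day 26. The differences were -2.71, -8.18 and -8.47 percentage points, and that of day 14 was -1.54 without control replicate 1 and -4.10 without control replicate 2.

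As levels, the Hoxc genes summed to 54.8, 49.2 and 43.6 CPM per kilobase in KPC and 55.1, 59.6 and 56.9 in controls at day 21, with no overlap. At day 26 they summed to 58.4, 59.6 and 51.4 CPM per kilobase in KPC and 58.8, 56.6, 54.3 and 60.6 in controls, and the groups overlapped. The Hoxa genes of day 26 summed to 41.2, 43.9 and 31.6 CPM per kilobase in KPC and 26.3, 26.0, 25.6 and 25.3 in controls, with no overlap. The summed level of all 39 genes was 95.6 ± 7.45 CPM per kilobase in KPC and 95.9 ± 4.75 in controls at day 21 (SD, n = 3 each), and 106 ± 11.8 in KPC (SD, n = 3) and 93.3 ± 3.64 in controls (SD, n = 4) at day 26. These shares were looked at after the single genes, so they are given as a description with no test. Without Hoxa9 and Hoxc10 the Hoxc difference was -5.11 points at day 21 and -5.63 points at day 26. The day 21 groups then overlapped, at 41.6% to 48.4% in KPC and 47.8% to 50.3% in controls.

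**Figure D4:**
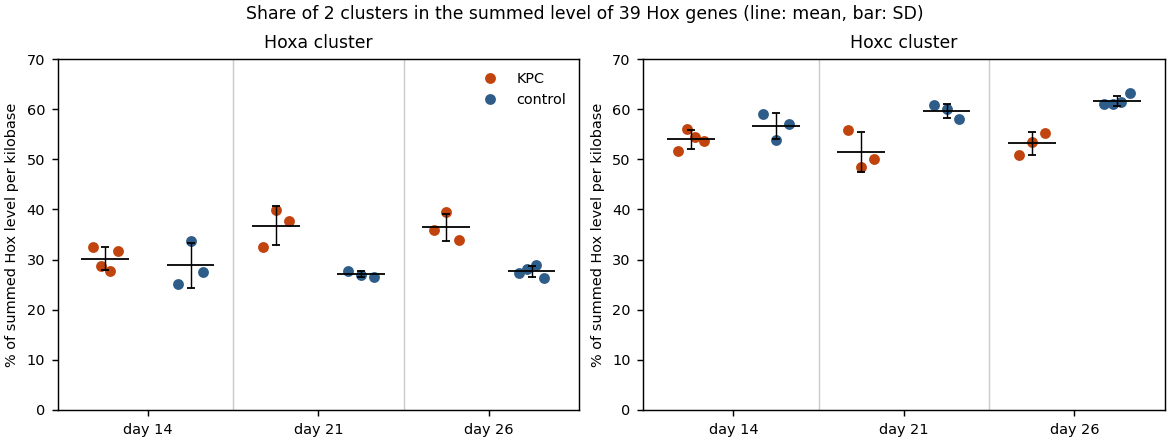
Share of the Hoxa cluster (left) and the Hoxc cluster (right) in the summed level per kilobase of the 39 Hox genes, in percent, for each library, with the mean as a line and the SD as a bar. The KPC and control points overlap at day 14 and are apart at days 21 and 26, with Hoxa at 32.4% to 40.0% in KPC of day 21 and 26.5% to 27.8% in controls.

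The transcription factors that set limb type were measured beside the Hox genes. Pitx1 and Tbx4 are the hindlimb factors, Isl1 starts the hindlimb bud, and Tbx5 is the forelimb factor. All of them were counted in all 20 libraries, Pitx1 at 2.30 to 10.3 CPM, Tbx4 at 7.51 to 25.2 CPM and Isl1 at 1.20 to 7.48 CPM. Tbx5 was present too, at 2.35 to 26.1 CPM, and its mean of 3.00 CPM per kilobase stood beside 4.25 for Tbx4 and 2.15 for Pitx1. The forelimb factor was thus not absent from cells labelled as hindlimb, and the source of its transcripts was not tested.

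Tbx5 was lower in KPC at day 21. It was at 7.56, 7.22 and 6.77 CPM in KPC and 16.8, 19.5 and 15.7 CPM in controls, with no overlap (log2 -1.28, SE 0.19, adjusted p 0.00136). At day 14 it was at 12.8, 13.2, 12.4 and 9.85 CPM in KPC and 10.4, 19.8 and 14.3 CPM in controls, and at day 26 at 2.35, 5.12 and 21.9 CPM in KPC and 24.1, 19.8, 15.2 and 26.1 CPM in controls, without a call at either day (adjusted p 0.617 and 0.25). At day 26 KPC replicates 1 and 2 lay below every control and replicate 3 within them. Without replicate 3 the log2 change at day 26 was -2.54 (adjusted p 5.6e-04). The day 21 call held without each library in turn, and a fit of all 20 libraries gave it an adjusted p of 0.159.

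The hindlimb factors were not called at any day. Pitx1 was at 6.68, 2.68 and 3.07 CPM in KPC and 6.15, 7.04 and 10.3 CPM in controls at day 21 (adjusted p 0.133), and at 2.46, 2.30 and 6.52 CPM in KPC and 6.98, 6.94, 6.50 and 9.39 CPM in controls at day 26 (adjusted p 0.141). Tbx4 was at 20.2, 25.2 and 13.1 CPM in KPC and 12.6, 13.5, 13.8 and 16.7 CPM in controls at day 26 (adjusted p 0.182). Isl1 was at 2.44, 4.86 and 4.14 CPM in KPC and 1.89, 2.08 and 2.01 CPM in controls at day 21, without overlap (log2 0.92, SE 0.41, adjusted p 0.167). Without KPC replicate 3, Pitx1 was lower (log2 -1.66, adjusted p 0.00152) and Tbx4 (log2 0.66, adjusted p 0.00971) and Isl1 (log2 1.10, adjusted p 0.0265) were higher in KPC at day 26, in the fit that called 51.6% of all genes.

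**Figure D5:**
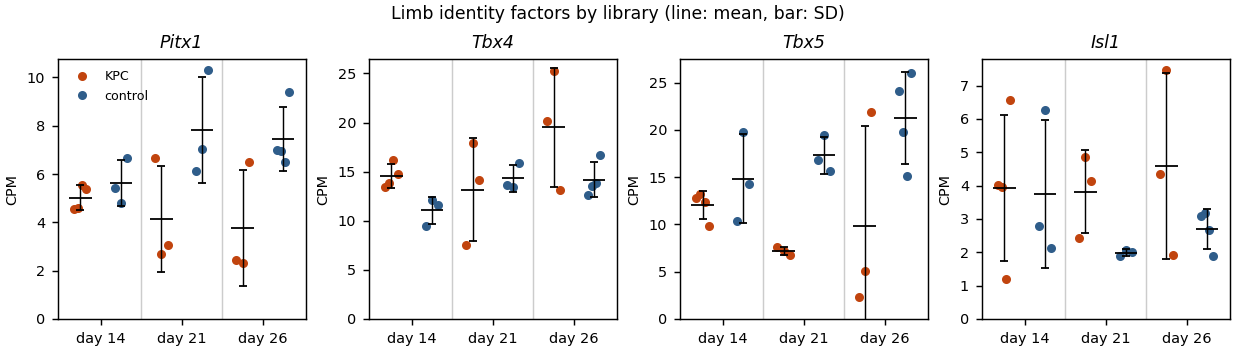
CPM of Pitx1, Tbx4, Tbx5 and Isl1 in each library, with the mean as a line and the SD as a bar, which is clipped at 0 for Tbx5 in KPC of day 26. Tbx5 lies at 6.77 to 7.56 CPM in KPC and 15.7 to 19.5 CPM in controls at day 21, and its 3 KPC values of day 26 are split between 2.35 and 21.9 CPM.

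Of the 30 limb factors in the list, 27 were tested at each day, with 1 higher and 0 lower at day 14, 1 higher and 2 lower at day 21, and 0 called at day 26. Over all genes 1.12% were called at day 14 and 12.5% at day 21, so the 3 of 27 at day 21 are near the share of all genes. At day 26 without KPC replicate 3, 5 were higher and 11 lower, where 51.6% of all genes were called. Prrx2, a homeobox gene of limb mesenchyme, was higher at day 14 (log2 0.81, SE 0.16, adjusted p 0.0327), at 51.4, 56.8, 52.7 and 34.2 CPM in KPC and 29.2, 28.1 and 27.1 CPM in controls. Osr1, a mark of fibroadipogenic progenitors in the embryo, was higher at day 21 (log2 0.35, SE 0.10, adjusted p 0.033), at 187, 201 and 190 CPM in KPC and 148, 154 and 149 CPM in controls. Msx1, a mark of undifferentiated limb mesenchyme, was lower beside Tbx5 (log2 -1.04, SE 0.20, adjusted p 0.00897), at 64.4, 35.3 and 43.2 CPM in KPC and 89.7, 107 and 94.6 CPM in controls. None of the 3 genes overlapped between the groups at those days. In the contrast of day 14 to day 26, Tbx2 had a higher KPC effect (log2 1.55) and Meox1 (-2.20) and Msx1 (-1.42) a lower one, with adjusted p of 0.0111, 0.0409 and 0.0178. These were 3 of 28 tested, where 14.3% of all genes were called.

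Hox proteins bind DNA together with Pbx and Meis proteins, and Polycomb and Trithorax complexes keep Hox clusters silent or active. Of 9 cofactor genes, 0 of 8 tested at day 14 and 0 of 9 tested at days 21 and 26 were called, and their smallest adjusted p was 0.1, at day 21. Of 22 Polycomb genes, all tested at each day, 1 was called, at day 21, where 12.5% of all genes were. This was Cbx7, a subunit that reads the silencing mark. Cbx7 was at 111, 148 and 130 CPM in KPC and 65.6, 66.2 and 77.3 CPM in controls at day 21, with no overlap (log2 0.89, SE 0.13, adjusted p 0.00101). It was at 146, 289 and 101 CPM in KPC and 56.2, 66.4, 50.4 and 48.4 CPM in controls at day 26, again with no overlap and without a call (log2 1.68, SE 0.32, adjusted p 0.0592). It was called without KPC replicate 3 (log2 1.94, adjusted p 3.6e-04). Of 13 Trithorax and demethylase genes, 1 was called, at day 14, where 1.12% of all genes were. This was Kdm6b, which removes the Polycomb mark, at 69.5, 82.7, 70.8 and 102 CPM in KPC and 145, 123 and 125 CPM in controls (log2 -0.68, SE 0.13, adjusted p 0.0301). From day 14 to day 26 the KPC effect was higher in 5 Polycomb genes (Suz12, Cbx7, Phc3, Mtf2 and Phc1) and in the Trithorax list's Kdm6b and Kmt2b, where it was higher in 9.6% of all genes. Without KPC replicate 3, 15 of 22 Polycomb, 6 of 13 Trithorax and 4 of 9 cofactor genes were called at day 26, where 51.6% of all genes were.

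Of 20 noncoding and flanking genes of the clusters, 17 were matched and 3 were tested at each day, with 0 called. Hotair, a long noncoding RNA of the Hoxc cluster, was at 9.10, 8.72 and 5.51 CPM in KPC and 4.55, 4.71, 3.33 and 2.50 CPM in controls at day 26, with no overlap (log2 1.04, SE 0.32, adjusted p 0.0831). It was called without KPC replicate 3 (log2 1.22, adjusted p 0.00971), as 1 of 4 genes of that list tested. Hoxa11os was above the controls in all KPC libraries at days 21 and 26, as Hoxa11 was at day 26, and neither was called. Hottip, a noncoding RNA at the posterior end of the Hoxa cluster, had 0 counts in all libraries.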

How the data were processed

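Messenger RNA of sorted progenitors was measured in 20 libraries, with 3 deposited tables, 1 for each day. The authors deposited raw, whole-number counts for each gene symbol, per the labels and the tables, with no normalization. Tools named in the submitters' processing notes are R 4.2.1, DESeq2 1.36.0, STAR, Bowtie and bcl2fastq 2.20. They give mm10 as the build. The counting program and its strand setting were not given in the sources used here. Libraries were stranded and RNA had an integrity number of at least 7, per the labels' protocols. All columns were matched to samples by library code, and 0 were left unmapped. No 2 libraries of the same group agreed within counting noise, and pairs from different groups were not compared.

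From the counts, each day was fitted with edgeR 4.0.16 in R 4.3.3 (TMM, filterByExpr with a minimum count of 10 and total of 15, robust quasi-likelihood F test, 2-sided, no covariates). Benjamini-Hochberg adjustment was over all genes tested, and an adjusted p under 0.05 is a call. Changes between days were contrasts in a single fit of 6 groups. Standard errors are the absolute log2 change over the square root of F. The scaling of all 20 libraries and that of a single day differed between the arms by at most 0.014 on the log2 scale. The test was checked on simulated counts. Alternatives were other scalings, DESeq2 1.42.0, limma 3.58.1 (voom), no filter, a replicate block and leaving out each library.

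The members and lists were chosen with earlier results of these data known. Values per library were given for the top gene per kilobase of each cluster, expressed genes of paralogue groups 9 to 13, called genes or the 3 with the smallest p of a day without calls, and genes whose expressed status differed. Of the other lists, Pitx1, Tbx4, Tbx5, Isl1 and the called member with the smallest p in each direction were named. Genes named beside these, such as Hoxb2, Hoxc5, Hotair and the members listed without KPC replicate 3, were chosen after their values were seen. The values of 1 Hox gene and the homeobox of another are not reported here. Exon lengths, overlaps and positions are from GENCODE vM21. Read depth was 12.9 to 26.4 M counts, and limits from a count of 0 use 3 counts and cover counting error only.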

Additional observations from a re-analysis of the deposited data

Results flagged for a closer look

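In groups of 4 libraries, 3 values stood apart from the rest of their group by Dixon's test at the 95% level, which sets the gap to the nearest library against the group's range. Chance flags about 1 in 20 such sets, and 51 sets, each 1 gene in 1 group of 4, were looked at. Hoxc6 was at 32.0 CPM in control replicate 4 of day 26, against 27.03 to 27.72 CPM in the other controls. Pitx1 was at 9.39 CPM in that same library, against 6.50 to 6.98 CPM in the others. Hoxb4 was at 3.61 CPM in KPC replicate 2 of day 14, against 1.42 to 1.71 CPM in the other KPC libraries. Between days, the KPC effect on Hoxa5 differed from day 14 to day 26 by 1.58 on the log2 scale, in a test of that difference.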

How the results depend on the processing

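At day 14, 0 Hox genes were called under every alternative run, where these called 0.0141% to 4.95% of all genes. At day 21 the 2 calls became 1 under scaling by library size alone and in a fit of all 20 libraries, 4 with limma-voom, and 0 to 4 without single libraries. At day 26 the 0 calls became 5 with DESeq2, 7 with limma-voom, 6 in the fit of all 20 libraries and 7 in the libraries whose code starts with 227, and 0 to 8 without single libraries. For day 14 to day 26 the 1 call became 2 with DESeq2, where 22.2% of all genes were called, and 0 to 4 without single libraries, with the 4 in the refit without KPC replicate 3 of day 26, where 40.4% were. For day 21 to day 26 the 0 calls became 0 to 3, with the 3 in that same refit, where 21.9% of all genes were called. The cause was not tested. With the replicate number as a block, 0, 2 and 0 Hox genes were called at the 3 days, and 361 genes in all at day 14, against 149 without the block. After each gene's mean within its arm was taken off, same-numbered libraries of the 2 arms correlated between -0.115 and 0.147, so the numbers were not taken as pairs. The KPC effect on Tbx5 differed by 0.16 between days 21 and 26 and by -1.24 (adjusted p 0.022, without KPC replicate 3 of day 26) to 0.62 (without KPC replicate 1 of day 26) without single libraries. The difference in Hoxc share at day 26, KPC minus control, was -5.63 points without Hoxa9 and Hoxc10, and -9.55 to -7.30 points without single libraries. These share alternatives were chosen after seeing the data. Genes under about 1 CPM rest on few counts, which limits the precision of their values.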

Other observations

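Some Hox levels differed between the days in both arms, which were sampled and counted separately, so these values are a description. Hoxd8 averaged 16.5, 10.6 and 8.67 CPM in KPC and 16.3, 13.2 and 11.7 CPM in controls at days 14, 21 and 26. Hoxc11 averaged 6.70, 13.8 and 20.3 CPM in KPC and 7.72, 8.85 and 12.5 CPM in controls at the same days. Hoxd4, an anterior gene, averaged 3.78, 3.99 and 1.03 CPM in KPC and 3.37, 2.37 and 1.65 CPM in controls.

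Over all genes 1.12% were called at day 14, and at day 21 6.38% were higher and 6.11% lower in KPC. Among the marker lists, 2 of 12 endothelial markers were higher in KPC at day 14, and 7 were higher and 1 lower at day 21. Of the progenitor markers, 1 of 8 was lower at day 14, and 1 was higher and 3 lower at day 21. Macrophage and leukocyte markers had 2 higher at day 21. Mural markers had 1 higher at day 14, and 2 higher and 1 lower at day 21. Among satellite cell markers 1 was higher at day 14, and among glial markers 1 was higher at day 21. Myofibre, tenocyte and epithelial or tumour cell markers had 0 calls at those days. All 11 tested myofibre markers had a positive log2 change at both days, with medians of 1.20 at day 14 and 2.60 at day 21. The medians over all genes were 0.0072 and 0.0091. The change was positive in 6 of 6 tenocyte markers at day 14 and 3 of 5 at day 21. No marker was called at day 26 with all libraries, where no gene was. Without KPC replicate 3, where 51.6% of all genes were called at day 26, 6 of 8 progenitor markers were lower, 6 of 12 endothelial markers were higher and 1 was lower, and 8 of 12 macrophage and leukocyte markers were higher.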
